A study of Mus musculus with 2 samples.

Results

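Neutrophils carrying Ly6g and Mmp8 transcripts were described in tumour-infiltrating immune cells of mice given Momordicine-I or vehicle. They were selected on measured transcripts: a cell had at least 200 detected genes, at most 10% mitochondrial UMIs (unique molecular identifiers, each standing for a captured mRNA molecule), at least 2% of its UMIs from the neutrophil genes S100a8, S100a9, G0s2, Csf3r and Retnlg, and at least 2 UMIs of Ly6g and Mmp8 together. It also had no UMI of Siglecf, Cd3e or Cd79a, fewer than 3 of Saa3, fewer than 5 of Ifit1, Ifit3 and Rsad2 together, and fewer than 3 of C1qa, C1qb and C1qc together. The rule kept 678 of 8335 barcodes, 471 in the Momordicine-I library and 207 in the vehicle library. The 17 genes of the rule are given below as a description only.

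The tumours grew from MOC2, a mouse oral carcinoma line, injected in Matrigel under the flank skin of female C57BL/6 mice aged 6 to 7 weeks. Of 10 mice per arm, the Momordicine-I arm received 30 mg/kg of Momordicine-I, a triterpenoid of bitter melon, in DMSO and Captisol once a day into the peritoneum, and the vehicle arm received the carrier. Tumours of 3 mice per arm were pooled, sorted on the leukocyte surface protein CD45 with propidium iodide, and made into 1 single-cell 3' library per arm. There is therefore no replicate: no test was possible, differences compare 2 libraries, and the 95% intervals below cover counting error only, with the UMIs of a cell taken as independent.

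The Momordicine-I library held 4693 barcodes and 41804810 UMIs, and the vehicle library 3642 barcodes and 33998491 UMIs. After filtering 4370 and 3364 cells were left in the Momordicine-I and vehicle libraries. The members held a median of 5373 UMIs and 1485 genes per cell in the Momordicine-I library and 7270 UMIs and 1618 genes in the vehicle library. The libraries shared 10 barcodes, and no barcode was a member in both.

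Neutrophils are made in bone marrow, where they load granules in sequence: primary granules with enzymes such as elastase and myeloperoxidase, secondary granules with lactoferrin (Ltf), lipocalin 2 (Lcn2), Ngp and Camp, and last gelatinase granules with Mmp9. Most granule mRNAs fall away as the cell matures and enters blood, while Cxcr2 marks cells ready to circulate. Ly6g encodes the GPI-anchored surface protein by which mouse neutrophils are commonly recognised, and Mmp8 encodes neutrophil collagenase, which cleaves fibrillar collagen. In tumours, neutrophils can lose such blood-type transcripts and carry others, among them Siglecf, Ccl3, Ccl4 and Cd274.

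Ly6g (ENSMUSG00000022582) lies on chromosome 15 at 75155240 to 75159126 of GRCm38, plus strand, and Mmp8 (ENSMUSG00000005800) on chromosome 9 at 7558456 to 7568485, plus strand. Ly6g stood at 139 CPM (the gene's UMIs over all UMIs, summed over the members of a library and scaled to 1000000) in Momordicine-I members and 230 CPM in vehicle members. Mmp8 stood at 631 CPM in Momordicine-I members and 452 CPM in vehicle members. In both libraries Mmp8 brought in more members than Ly6g: Mmp8 without Ly6g was found in 310 of 471 Momordicine-I members (65.8%) and 96 of 207 vehicle members (46.4%). Ly6g without Mmp8 was found in 44 (9.34%) and 37 (17.9%), and both genes in 117 (24.8%) and 74 (35.7%) of the Momordicine-I and vehicle members. Median depth was 5047.5 and 7182 UMIs in the Mmp8-only members of the Momordicine-I and vehicle libraries.

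The other 3 genes that name this cell type are Retnlg, encoding a resistin-like secreted protein and itself used by the rule, Wfdc21, encoding a small secreted WAP-domain protein, and Lcn2, encoding the siderophore-binding lipocalin 2. Retnlg stood at 4070 CPM in Momordicine-I members and 5145 CPM in vehicle members, against 1888 CPM in the other neutrophils of the Momordicine-I library. Wfdc21 had UMIs in 433 of 471 Momordicine-I members (91.9%) and 191 of 207 vehicle members (92.3%). Lcn2 had UMIs in 408 (86.6%) and 161 (77.8%) of the Momordicine-I and vehicle members. In B cells, which should lack these genes and were read at medians of 4937 and 6147 UMIs in the Momordicine-I and vehicle libraries, Wfdc21 had a UMI in 6.90% and 7.46% and Lcn2 in 4.60% and 5.70% of cells. Wfdc21 and Lcn2 were found in a larger share of members than of B cells in both libraries. B cells were chosen below the 2% neutrophil share, so this contrast does not set members apart from other neutrophils. In other neutrophils of the Momordicine-I and vehicle libraries, Wfdc21 had a UMI in 73.3% and 71.4% and Lcn2 in 65.1% and 53.3% of cells. The presence of Ly6g, Mmp8 and Retnlg was set by the rule. The secondary granule genes Camp, Ngp and Ltf, which mark immature neutrophils, were all at 0 in 83.7% of Momordicine-I members and 87.7% of other neutrophils of that library, and in 81.2% of vehicle members and 88.01% of other neutrophils there. Median depth was 5373 UMIs in members and 4618.5 in other neutrophils of the Momordicine-I library, and 7270 and 5313 in the vehicle library. These 3 genes were thus detected in a larger share of members than of other neutrophils, at the greater depth of the members.

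Sequence just ahead of the transcription start is shown for the marker genes because they are the ones by which these cells are recognised. RefSeq promoters (GRCm38.p6) were at hand for 4 of the 5 markers, Wfdc21 being the one not matched. The 250 bases before the RefSeq start were searched on both strands for TTGCNNAA (read as TTNNGCAA on the other strand), a form of the half-sites bound by C/EBP factors, which drive granulocyte genes; the motif was chosen with the markers known. Each marker shown held 1 match, capitals below, while 9.56% of all 32851 promoters held one. Among the named genes compared with other neutrophils below, 5 of 10 promoters of those higher in members held a match (Cstdc5, Dck, Lcn2, Ltf and Ngp) and 0 of 9 of those lower; a match describes letters in this window and shows no binding. The promoter of a second annotated start of Ly6g, beginning at 75155079, held no match. RefSeq and GENCODE starts differ for some of these genes: the Ly6g window runs past the GENCODE start given above, and the Lcn2 window lies inside the GENCODE extent of the gene (chromosome 2, 32384633 to 32388252). In the order listed the windows are chr15:75155011-75155260 (plus), chr9:7558179-7558428 (plus), chr16:48872358-48872607 (plus) and chr2:32387740-32387989 (minus).
Ly6g: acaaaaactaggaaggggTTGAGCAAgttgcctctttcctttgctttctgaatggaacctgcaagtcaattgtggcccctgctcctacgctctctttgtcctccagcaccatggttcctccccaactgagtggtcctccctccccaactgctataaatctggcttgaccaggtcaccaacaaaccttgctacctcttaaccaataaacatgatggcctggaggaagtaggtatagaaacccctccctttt
Mmp8: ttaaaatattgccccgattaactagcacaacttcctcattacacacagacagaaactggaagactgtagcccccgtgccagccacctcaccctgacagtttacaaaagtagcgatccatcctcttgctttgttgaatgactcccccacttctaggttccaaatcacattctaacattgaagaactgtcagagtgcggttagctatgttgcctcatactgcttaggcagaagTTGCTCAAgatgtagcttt
Retnlg: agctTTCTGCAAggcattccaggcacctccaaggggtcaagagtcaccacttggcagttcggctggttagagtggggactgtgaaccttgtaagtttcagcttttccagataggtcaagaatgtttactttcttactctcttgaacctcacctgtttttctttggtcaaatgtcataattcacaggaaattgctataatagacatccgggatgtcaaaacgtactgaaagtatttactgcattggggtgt
Lcn2: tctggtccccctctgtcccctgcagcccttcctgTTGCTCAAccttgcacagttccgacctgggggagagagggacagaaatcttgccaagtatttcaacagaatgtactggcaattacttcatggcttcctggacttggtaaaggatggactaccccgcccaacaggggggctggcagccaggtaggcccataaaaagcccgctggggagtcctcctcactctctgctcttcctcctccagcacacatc

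Ly6g and Mmp8 neutrophils made up a larger share of the sorted cells in the Momordicine-I library. They were 471 of 4370 filtered cells there (10.8%, exact interval 9.87 to 11.7%) and 207 of 3364 in the vehicle library (6.15%, 5.36 to 7.02%), a ratio of 1.75 (1.48 to 2.07). Among all neutrophils, meaning cells past the 2% neutrophil share with the limits on C1q, Cd3e and Cd79a, they were 471 of 2165 (21.8%, 20.03 to 23.6%) in the Momordicine-I library and 207 of 1450 (14.3%, 12.5 to 16.2%) in the vehicle library, a ratio of 1.52 (1.29 to 1.80). Filtered cells held a median of 5002 UMIs in the Momordicine-I library and 5760 in the vehicle library. Cells with at least 1000 UMIs were also thinned to 1000 and gated again, and cells with fewer were left out. Then 146 Momordicine-I cells (6.47% of neutrophils) and 47 vehicle cells (2.96%) remained, a ratio of 2.19. The rule's upper limits, set in UMIs, are met more easily at that depth, so the neutrophils counted differ as well.

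**Figure D1:**
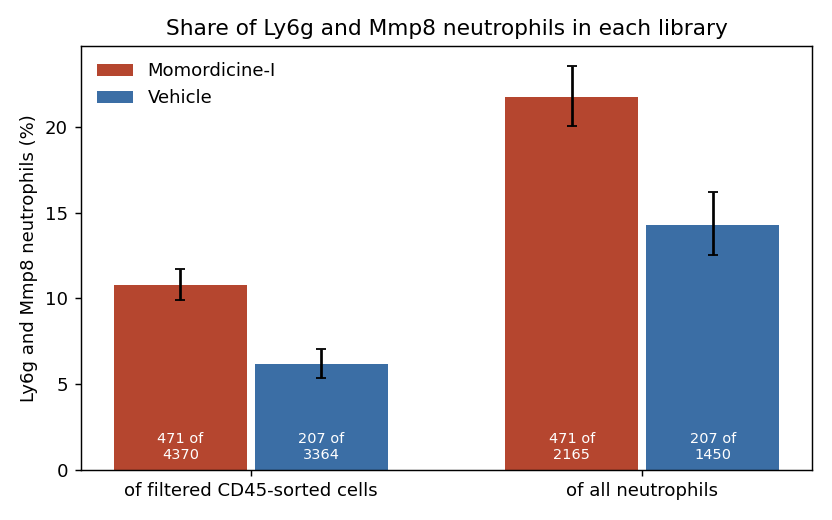
Share of Ly6g and Mmp8 neutrophils (y axis, %) among filtered sorted cells and among all neutrophils, for the Momordicine-I (left bar) and vehicle (right bar) libraries. Bars are 1 library each and error bars are exact 95% counting intervals. The Momordicine-I library stood at 10.8% of filtered cells and the vehicle library at 6.15% (intervals of 9.87 to 11.7% and 5.36 to 7.02%), 1 library each, so the bars say nothing of the spread between mice.

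The steps of the rule removed unequal numbers of cells from the libraries. Cells with at least 2% neutrophil UMIs and at least 2 Ly6g and Mmp8 UMIs numbered 760 in the Momordicine-I library and 387 in the vehicle library. Requiring no Siglecf left 644 and 343, and the Saa3 limit left 580 and 329 in the Momordicine-I and vehicle libraries. The interferon limit then left 505 of 580 cells in the Momordicine-I library and 239 of 329 in the vehicle library. Without the Saa3 and interferon limits 590 Momordicine-I cells (13.5% of filtered cells) and 282 vehicle cells (8.38%) qualified, a ratio of 1.61.

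Cells just outside and just inside the threshold differed by degree. With the other limits met, 226 Momordicine-I and 117 vehicle cells held exactly 1 UMI of Ly6g and Mmp8, and 130 and 58 held exactly 2. Wfdc21 stood at 949 CPM in the Momordicine-I cells with 1 UMI and 1026 CPM in those with 2. In the vehicle library it stood at 1159 CPM in cells with 1 UMI and 1131 CPM in those with 2. Lcn2 stood at 724 and 841 CPM in the Momordicine-I cells with 1 and 2 UMIs, and at 461 and 775 CPM in the vehicle cells with 1 and 2. Only 11 Momordicine-I members and 1 vehicle member had a neutrophil share between 2% and 2.5%, while 8 and 3 cells lay between 1.5% and 2%.

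Gene levels among members were read by their Ly6g and Mmp8 content, a range cut at a chosen value, along which depth differed too. Members were read in 4 bins of 2, 3 to 4, 5 to 9, and 10 or more UMIs of Ly6g and Mmp8, holding 130, 125, 145 and 71 Momordicine-I cells and 58, 66, 47 and 36 vehicle cells. Median depth ran from 4992.5 UMIs in the first bin to 6679 in the last in the Momordicine-I library, and from 6034.5 to 8485 in the vehicle library. Wfdc21 stood at 1026, 987, 1163 and 1638 CPM across the 4 bins in Momordicine-I members and at 1131, 1617, 1948 and 2660 CPM in vehicle members. Lcn2 stood at 841, 945, 1132 and 2443 CPM in Momordicine-I members and at 775, 653, 1601 and 3709 CPM in vehicle members. In the third vehicle bin 1 cell held 52.6% of the Lcn2 UMIs. Both genes were highest in the last bin of each library. That bin also held 94.8% of the Camp, Ngp and Ltf UMIs of Momordicine-I members and 83.7% of those of vehicle members.

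The homing receptor gene Cxcr2 and the checkpoint ligand gene Cd274 did not follow that order. Cxcr2, through whose product CXC chemokines draw neutrophils out of marrow, stood at 1249, 1098, 997 and 1081 CPM across the bins in Momordicine-I members and at 1095, 1133, 1101 and 872 CPM in vehicle members. Cd274, which encodes PD-L1, stood at 518, 403, 405 and 476 CPM in Momordicine-I members and at 672, 561, 485 and 318 CPM in vehicle members, where it was lower in each bin than in the one before. The summed level of 23 pattern and Fc receptors was 19657 CPM in the first bin and 17918 CPM in the last in Momordicine-I members, and 21819 and 16952 CPM in vehicle members.

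**Figure D2:**
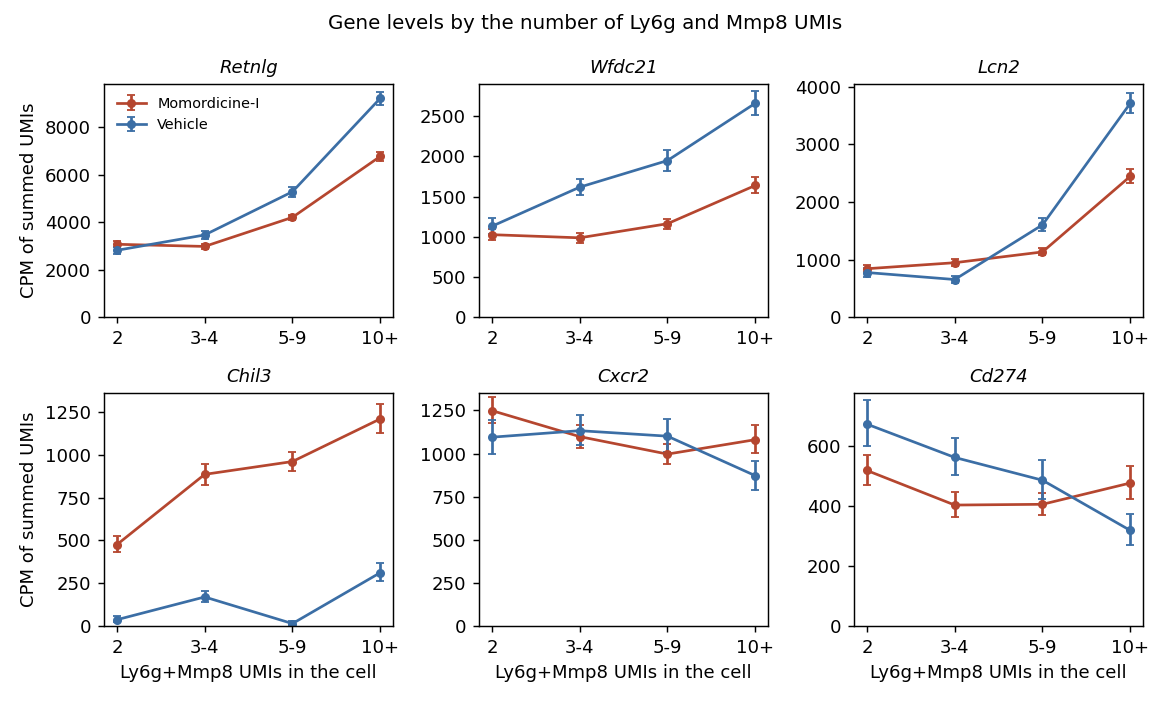
CPM of summed UMIs (y axis) of 6 genes by the number of Ly6g and Mmp8 UMIs in the cell (x axis), in Momordicine-I and vehicle members. Points are sums over 36 to 145 cells of 1 library and bars are exact 95% counting intervals. Wfdc21 and Lcn2 were highest at 10 or more UMIs in both libraries, Chil3 was higher in Momordicine-I members in each of the 4 bins, while Cxcr2 and Cd274 were not highest there in either library; Retnlg is a gene of the rule.

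A few members carried most of the immature granule transcripts. Cells with at least 20 UMIs of Camp, Ngp and Ltf together numbered 5 of 471 in the Momordicine-I library (1.06%, exact interval 0.346 to 2.46%) and 5 of 207 in the vehicle library (2.42%, 0.789 to 5.55%). They held 92.1% of those UMIs in Momordicine-I members and 97.9% in vehicle members. Their median depth was 12677 UMIs in the Momordicine-I library and 28493 in the vehicle library. Camp, the cathelicidin precursor, had UMIs in 6 Momordicine-I and 8 vehicle members.

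**Figure D3:**
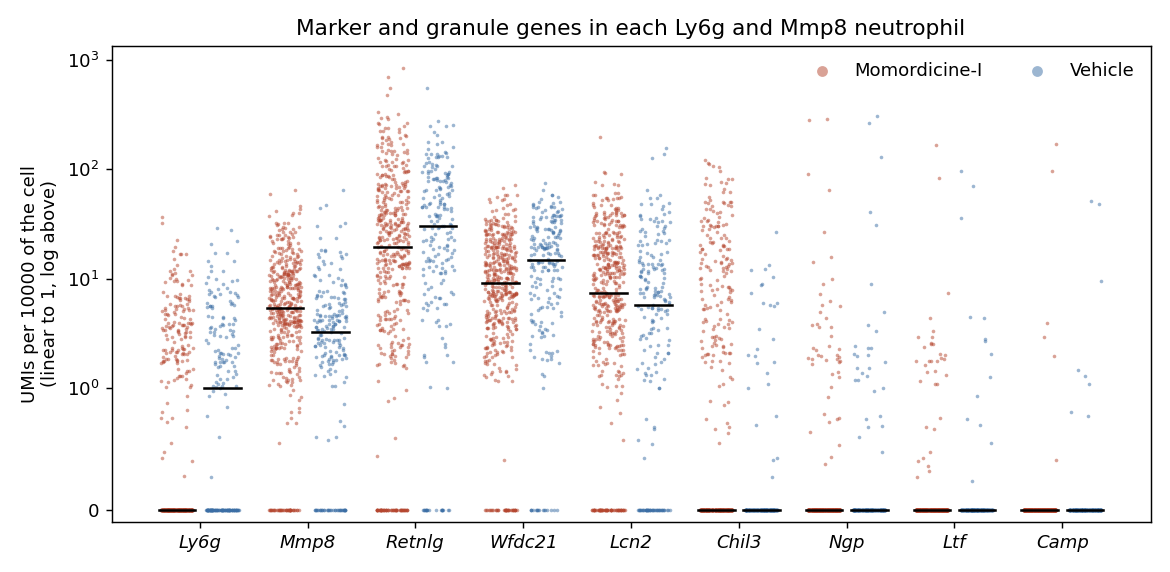
UMIs of the gene relative to all UMIs of each member cell (y axis, linear at the bottom and logarithmic above) for 9 genes, with Momordicine-I cells on the left and vehicle cells on the right of each gene. A point is a cell and a black line is the median over the 471 or 207 members. Wfdc21 and Lcn2 were spread over most cells, Chil3 was present in 37.8% of Momordicine-I and 13.04% of vehicle members, and Ngp, Ltf and Camp were high in a few cells of each library.

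Within each library, members were then set against the other neutrophils, 1694 in the Momordicine-I library and 1243 in the vehicle library. The members carried more of several granule and secreted-protein genes and less of several inflammatory genes, as a description of cells chosen by transcripts. A gene was called different past 1.5-fold, among genes outside the rule with at least 20 UMIs. In the Momordicine-I library 4.69% of 9926 genes were higher and 11.5% lower in members. In the vehicle library 4.69% of 9166 genes were higher and 23.9% lower. Of 9052 genes measured in both, 85 were higher and 416 lower in both libraries. The median log2 ratio over all genes was -0.09 in the Momordicine-I library and -0.21 in the vehicle library.

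Among granule genes, Lcn2 stood at 1246 CPM in members and 757 CPM in other neutrophils of the Momordicine-I library, which is 1.65 times (1.59 to 1.71). In the vehicle library it stood at 1652 CPM in members and 603 CPM in other neutrophils, a ratio of 2.74 (2.62 to 2.86). Lcn2 in vehicle members rested in part on few cells, while its direction against other neutrophils held in each alternative given below. Pglyrp1, a peptidoglycan-binding antibacterial protein, stood at 418 CPM in members and 273 CPM in other neutrophils of the Momordicine-I library and at 582 and 281 CPM in the vehicle library. Lyz2, lysozyme, stood at 839 CPM in members and 379 CPM in other neutrophils of the Momordicine-I library, and at 634 and 416 CPM in the vehicle library. Their ratios ran from 1.52 to 2.21, with the members higher each time.

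Wfdc21 stood at 1169 CPM in members and 720 CPM in other neutrophils of the Momordicine-I library, which is 1.62 times (1.56 to 1.69). Among vehicle cells, Wfdc21 stood at 1839 CPM in members and 877 CPM in other neutrophils, a ratio of 2.10 (2.02 to 2.18). Ifitm6, of the interferon-induced transmembrane family, stood at 251 CPM in members and 134 CPM in other neutrophils of the Momordicine-I library. For vehicle, Ifitm6 stood at 641 CPM in members and 180 CPM in other neutrophils, with 25.6% of the members' UMIs in 1 cell. Dck, deoxycytidine kinase of the nucleoside salvage pathway, stood at 59.1 CPM in members and 30.2 CPM in other neutrophils of the Momordicine-I library, and at 65.0 and 35.5 CPM in the vehicle library. Each of these was spread over many members: Dck had UMIs in 134 Momordicine-I and 65 vehicle members.

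Other genes of the named set depended on few cells. Ngp was 2.76 times and Ltf 2.22 times higher in members than in other neutrophils of the Momordicine-I library, and 2.26 and 2.42 times higher in the vehicle library. Their top cells held 40.6% and 52.1% of the members' UMIs in the Momordicine-I library and 47.8% and 40.3% in the vehicle library. Without cells of 20 or more Camp, Ngp and Ltf UMIs the log2 ratio of Ltf was -0.59 in the Momordicine-I library and -0.96 in the vehicle library. The stefin genes Cstdc5, Stfa2 and Csta2, cysteine protease inhibitors in near-identical copies among which reads can be split, ran from 1.72 to 2.09 times higher in members. Arg1, arginase 1, was 2.30 times higher in Momordicine-I members and 2.15 times higher in vehicle members, with 40.1% and 72.4% of UMIs in 1 cell; its log2 ratio turned to -0.72 in the vehicle library with a minimum of 4 Ly6g and Mmp8 UMIs. Cstdc5 was at -0.02 in the vehicle library without the highest cells, and Stfa2 at -0.40 without the granule-loaded cells.

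Several inflammatory genes were lower in members. Tnf, a central inflammatory cytokine, stood at 88.9 CPM in members and 184 CPM in other neutrophils of the Momordicine-I library, which is 0.48 times (0.43 to 0.54). For vehicle, Tnf stood at 82.4 CPM in members and 169 CPM in other neutrophils, a ratio of 0.49 (0.41 to 0.57). Icam1, the adhesion ligand of beta-2 integrins, stood at 125 CPM in members and 214 CPM in other neutrophils of the Momordicine-I library, and at 101 and 231 CPM in the vehicle library. Csf1, the macrophage growth factor, stood at 320 CPM in members and 497 CPM in other neutrophils of the Momordicine-I library, and at 237 and 473 CPM in the vehicle library.

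Cxcl1, a neutrophil-attracting chemokine, was 0.59 times its level in other neutrophils in the Momordicine-I members and 0.27 times in the vehicle members, with a Momordicine-I log2 ratio of 0.07 once cells were thinned before gating. The heat shock genes Hspa1a and Hspa1b, near-identical copies, ran from 0.44 to 0.61 times, and the adaptor gene Scimp was at 0.50 and 0.52 times in Momordicine-I and vehicle members. Cd274 stood at 444 CPM in members and 594 CPM in other neutrophils of the Momordicine-I library, and at 509 and 695 CPM in the vehicle library, ratios of 0.75 and 0.73 that did not reach 1.5-fold. Cxcr2 was 1.07 and 1.17 times higher in members of the Momordicine-I and vehicle libraries.

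Of 28 measured genes of a blood neutrophil list, 4 were higher and 0 lower in members of the Momordicine-I library (Padi4, Anxa1, Ifitm6 and Adpgk), with a median log2 ratio of 0.13. In the vehicle library 6 were higher and 0 lower, with a median of 0.28. Over all genes 4.69% were higher in members of each library. Of 30 genes of a tumour neutrophil list, 0 were higher and 3 lower in members in each library, with medians of -0.22 and -0.31; 3 of 30 is not above the 11.5% and 23.9% of all genes that were lower. Of 10 secondary granule genes, 6 were higher and 0 lower in the Momordicine-I library (median 0.68), and 4 higher and 1 lower in the vehicle library (median 0.35). Of the 20 genes of an immature neutrophil list, 16 were measured in the Momordicine-I library, where 9 were higher in members and 2 lower (median 0.59), and 17 in the vehicle library, where 5 were higher and 3 lower (median 0.13). Camp stood at 103 CPM in members and 9.89 CPM in other neutrophils of the Momordicine-I library, and at 191 and 245 CPM in the vehicle library. Of 6 primary granule genes measured in the Momordicine-I library and 5 in the vehicle library, 1 was higher (Lyz2) and 0 lower in each, with medians of -0.03 and -0.16.

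Interferon genes were lower in members, but the rule had removed cells rich in Ifit1, Ifit3 and Rsad2, so these genes were used indirectly in choosing the members. Of 32 interferon-response genes outside the rule, 0 were higher and 21 lower in members of the Momordicine-I library (median log2 ratio -0.79), and 0 higher and 25 lower in the vehicle library (median -1.32). Over all genes 11.5% and 23.9% were lower in members of the Momordicine-I and vehicle libraries. The named genes Cxcl10, Slfn5, Isg15, Parp14 and Ifi204 ran from 0.10 to 0.57 times. With the Saa3 and interferon limits lifted the log2 ratio of Isg15 was 0.00 and that of Cxcl10 1.23 in the Momordicine-I library.

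**Figure D4:**
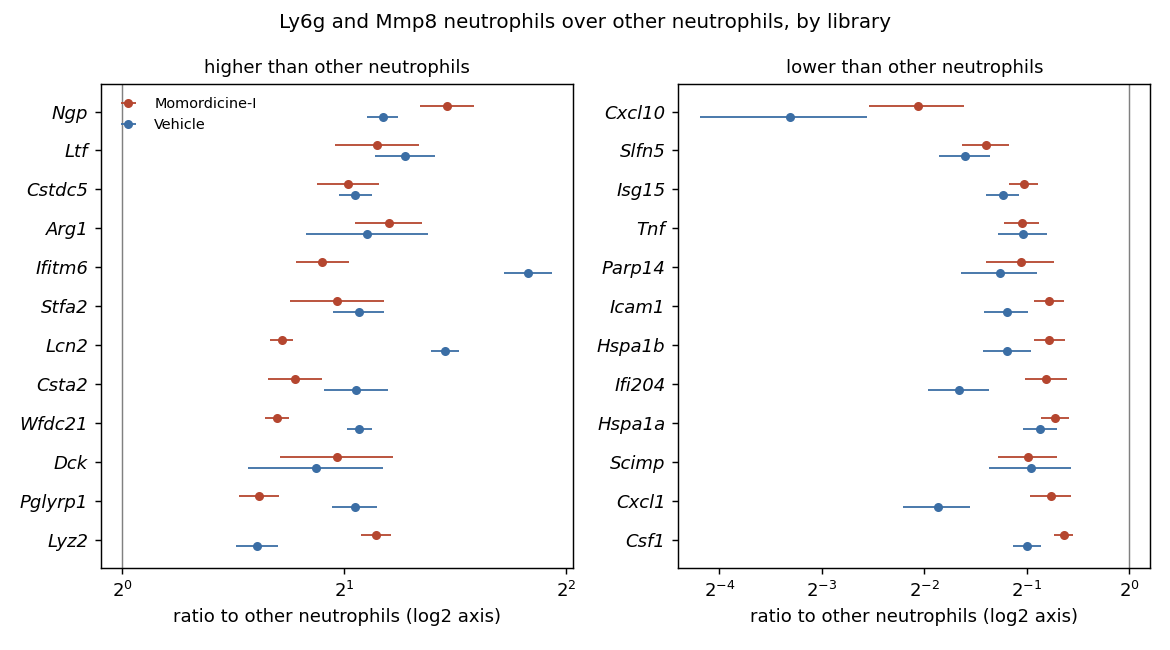
Ratio of members to other neutrophils (x axis, log2 scale) for the 12 higher and 12 lower genes named by the rule of size, in the Momordicine-I (upper point) and vehicle (lower point) libraries. Points are CPM ratios of summed UMIs and bars are exact 95% counting intervals. Lcn2 ran 1.65 and 2.74 times higher and Tnf 0.48 and 0.49 times in the Momordicine-I and vehicle libraries, and Cxcl10, Slfn5, Isg15, Parp14 and Ifi204 were reached by the interferon limit of the rule.

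The nearest populations were other neutrophils with Siglecf, 281 in the Momordicine-I library and 156 in the vehicle library, and those without Siglecf, Ly6g and Mmp8, 1027 and 863. The Siglecf cells had no limit on Ly6g and Mmp8, so some carried these genes too. Median depth was 8233 and 10518 UMIs in Siglecf cells of the Momordicine-I and vehicle libraries, against 5373 and 7270 in members. It was 4217 and 4791 UMIs in cells without the 3 genes. Siglec-F-bearing neutrophils are known from mouse lung tumours, where they are long-lived. Tnf was 0.37 and 0.49 times and Icam1 0.47 and 0.34 times its level in Siglecf cells, in members of the Momordicine-I and vehicle libraries. Wfdc21 was 1.92 and 1.78 times higher and Lcn2 1.84 and 1.59 times higher in members than in Siglecf cells. Against cells without Siglecf, Ly6g and Mmp8, Wfdc21 was 1.80 and 2.80 times and Lcn2 2.05 and 4.34 times higher in members of the Momordicine-I and vehicle libraries. The Lcn2 level of vehicle members rested in part on few cells, as said above. Wfdc21 and Lcn2 were thus higher in members than in either population, in both libraries.

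Momordicine-I members differed from vehicle members most plainly in Chil3. Chil3 (ENSMUSG00000040809, chromosome 3, 106147554 to 106167564, minus strand) encodes the secreted chitinase-like protein Ym1, a product of late marrow neutrophils and of alternatively activated macrophages. It stood at 870 CPM (840 to 901) in Momordicine-I members and 139 CPM (123 to 157) in vehicle members, a ratio of 6.25 (5.52 to 7.10). A UMI was found in 178 of 471 Momordicine-I members (37.8%, 33.4 to 42.3%) and in 27 of 207 vehicle members (13.04%, 8.77 to 18.4%). With members thinned to 3000 UMIs, which left out 25 Momordicine-I and 4 vehicle cells, the shares were 31.4% and 7.88%. A Chil3 UMI was found in 34.9% of other neutrophils of the Momordicine-I library and 12.1% of those of the vehicle library. With the same thinning, which left out 270 and 162 of them, these shares were 30.5% and 8.42%. Detection in other neutrophils was thus close to that in members of each library. B cells held a Chil3 UMI in 8.05% of cells of the Momordicine-I library and 3.07% of the vehicle library, at medians of 4937 and 6147 UMIs.

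The top cell held 5.07% of the Chil3 UMIs in Momordicine-I members and 27.9% in vehicle members, and without the highest cell of each library the log2 ratio was 3.04. Across the bins Chil3 stood at 476, 885, 960 and 1209 CPM in Momordicine-I members and at 38.1, 171, 15.4 and 312 CPM in vehicle members. Members with Mmp8 but no Ly6g held 87.5% of the Chil3 UMIs in the Momordicine-I library and 57.0% in the vehicle library. The difference was not confined to members: other neutrophils had Chil3 at 554 CPM in the Momordicine-I library and 211 CPM in the vehicle library, a log2 ratio of 1.39. In the Momordicine-I library Chil3 was 1.57 times higher in members than in other neutrophils (1.504 to 1.64), and in the vehicle library 0.66 times (0.58 to 0.75). Without the Saa3 and interferon limits the vehicle log2 ratio was 0.03.

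Between the libraries 22.8% of 7694 measured genes were higher past 1.5-fold in Momordicine-I members and 3.89% lower. The median log2 ratio over all of them was 0.22, while the 5 neutrophil genes of the rule took a median of 9.32% of the UMIs of a Momordicine-I member and 12.7% of a vehicle member. Differences are to be read against that shift. With scaling by the median ratio, 1165 genes were higher and 561 lower, in place of 1752 and 299.

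Among secreted and granule products, Wfdc17 and Wfdc21 were lower in Momordicine-I members past 1.5-fold, as was the membrane protein gene Ifitm6, while the granule lists were mixed. Wfdc17, a WAP-domain protein that dampens macrophage activation, stood at 4303 CPM in Momordicine-I members and 9039 CPM in vehicle members, a ratio of 0.48 (0.47 to 0.49). It had UMIs in 437 Momordicine-I and 203 vehicle members, and its log2 ratio in other neutrophils was -0.59. Wfdc21 stood at 1169 CPM in Momordicine-I members and 1839 CPM in vehicle members, a ratio of 0.64 (0.61 to 0.66). It kept its direction in all 16 alternatives but came within 1.5-fold in 3 of them. Lcn2 stood at 1246 CPM in Momordicine-I members and 1652 CPM in vehicle members, a ratio of 0.75 (0.72 to 0.79) within 1.5-fold. That difference turned with the processing: the log2 ratio of Lcn2 was 0.24 without the granule-loaded cells, 0.17 as the mean of the cells' CPM and 0.54 with cells thinned before gating. Ifitm6 stood at 251 CPM in Momordicine-I members and 641 CPM in vehicle members, a ratio of 0.39 (0.36 to 0.43), with UMIs in 225 and 116 members. Its log2 ratio of -1.35 was -0.75 as the mean of the cells' CPM.

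Of 5 measured primary granule genes of 10 listed, 0 were higher and 1 lower (Serpinb1a) in Momordicine-I members, with a median log2 ratio of 0.39 (-0.03 without the Saa3 and interferon limits), and Lyz2 stood at 839 CPM in Momordicine-I members and 634 CPM in vehicle members. Of 10 secondary granule genes, 1 was higher (Chil3) and 4 lower (Ltf, Camp, Ngp and Cd177) in Momordicine-I members, with a median log2 ratio of -0.35. Ngp stood at 300 CPM in Momordicine-I members and 1277 CPM in vehicle members, and Ltf at 113 and 347 CPM. Without the 5 granule-loaded cells of each library the log2 ratio of Ngp was -0.28 and that of Ltf 0.94. That of Camp was -2.55, against -0.89 with them. Those cells held 92.1% of the Camp, Ngp and Ltf UMIs in Momordicine-I members and 97.9% in vehicle members. Few UMIs were therefore left for these 3 ratios. Of 6 stefin A genes, 0 were higher and 4 lower (Stfa1, Stfa2, Stfa3 and Cstdc5), with a median of -1.96. Among all genes 22.8% were higher and 3.89% lower in Momordicine-I members. Stfa3 stood at 10.5 CPM in Momordicine-I members and 252 CPM in vehicle members, where 1 cell held 48.5% of its UMIs. Without the granule-loaded cells the stefin median was 0.16. Of 8 gelatinase granule genes, 1 was higher (Arg1) and 0 lower, with a median of -0.20, and Mmp9 stood at 733 CPM in Momordicine-I members and 754 CPM in vehicle members.

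The rule limited interferon transcripts in both libraries, and among all genes 22.8% were higher and 3.89% lower in Momordicine-I members. Of 27 interferon-response genes measured, 3 were higher and 7 lower, with a median log2 ratio of -0.34, and 1 lower gene, Slfn4 of the Schlafen family, stood at 325 CPM in Momordicine-I members and 596 CPM in vehicle members. Rtp4, an interferon-induced chaperone of G-protein-coupled receptors, stood at 77.0 CPM in Momordicine-I members and 161 CPM in vehicle members, a ratio of 0.48 (0.41 to 0.56). Ifi27l2a stood at 209 CPM in Momordicine-I members and 429 CPM in vehicle members, with UMIs in 139 and 109 members. In other neutrophils 0 of 32 were higher and 24 lower, with a median of -0.67. Of all 10540 genes measured there, 12.2% were higher and 5.17% lower, with a median of 0.14. Without the Saa3 and interferon limits the members' median was -0.69. Spp1, osteopontin, stood at 146 CPM in Momordicine-I members and 308 CPM in vehicle members. Acvrl1, a receptor gene of the BMP pathway, had UMIs in 45 of 471 Momordicine-I members and 38 of 207 vehicle members, a CPM ratio of 0.29 (0.21 to 0.40).

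Some antigen presentation genes stood higher in Momordicine-I members, the class II genes through a few cells. H2-K1, a classical class I heavy chain, stood at 955 CPM in Momordicine-I members and 597 CPM in vehicle members, a ratio of 1.60 (1.496 to 1.71), with UMIs in 447 and 192 members. Of 15 class I genes, 5 were higher (H2-K1, H2-Q4, H2-Q6, H2-Q7 and Psmb8) and 0 lower (22.8% of all genes were higher), with a median log2 ratio of 0.30; the H2-Q genes are near-identical copies among which reads can be split. Without the Saa3 and interferon limits that median was 0.02. The class II genes H2-Aa, H2-Ab1, Cd74 and H2-Eb1 were 5.61 to 7.21 times higher in Momordicine-I members, with 39.7 to 50.9% of their UMIs in 1 cell.

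The class II difference rested on 7 Momordicine-I members with at least 20 UMIs of these 4 genes together, against 0 vehicle members. Without them the log2 ratio was 0.22 for H2-Aa, 0.58 for H2-Ab1, 0.26 for Cd74 and -0.03 for H2-Eb1. The difference also depended on the rule. With the Saa3 and interferon limits lifted the log2 ratios were -0.19 for H2-Aa, -0.13 for H2-Ab1, 0.086 for Cd74 and -0.088 for H2-Eb1. The 7 cells were kept in that setting. The 10 dendritic cell markers, which include these genes, summed to 832 CPM in Momordicine-I members (Xcr1 and Clec9a at 0) and 137 CPM in vehicle members (Xcr1 at 0). S100a4, a calcium-binding protein gene, stood at 207 CPM in Momordicine-I members and 51.2 CPM in vehicle members, a log2 ratio of 2.01 that was 1.66 without the 7 cells. With cells thinned before gating the S100a4 log2 ratio was -0.05, but it rested on few UMIs in 146 Momordicine-I and 47 vehicle cells. Ifi30, a lysosomal thiol reductase gene, stood at 67.05 CPM in Momordicine-I members and 17.4 CPM in vehicle members, with log2 ratios of 1.95, and 1.15 without the 7 cells. Ccl24, an eotaxin, had 1 cell carrying 82.1% of the UMIs among Momordicine-I members, and its log2 ratio of 3.55 was -0.29 without the 7 cells.

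Among genes spread over more cells, Hist1h4i, a replication-dependent histone gene whose mRNA has near-identical copies, stood at 207 CPM in Momordicine-I members and 76.8 CPM in vehicle members, a ratio of 2.69 (2.26 to 3.23). Prnp, the prion protein gene, stood at 191 CPM in Momordicine-I members and 72.1 CPM in vehicle members, a ratio of 2.65 (2.21 to 3.20), with UMIs in 218 and 57 members. Rgs1, a regulator of G-protein signalling, stood at 253 CPM in Momordicine-I members and 89.0 CPM in vehicle members. Ccl2, the monocyte-attracting chemokine, stood at 110 CPM in Momordicine-I members and 37.3 CPM in vehicle members, where 1 cell held 53.4% of its UMIs. The log2 ratios of Hist1h4i and Prnp in other neutrophils were 1.37 and 1.07, so both were higher in the Momordicine-I library there too.

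**Figure D5:**
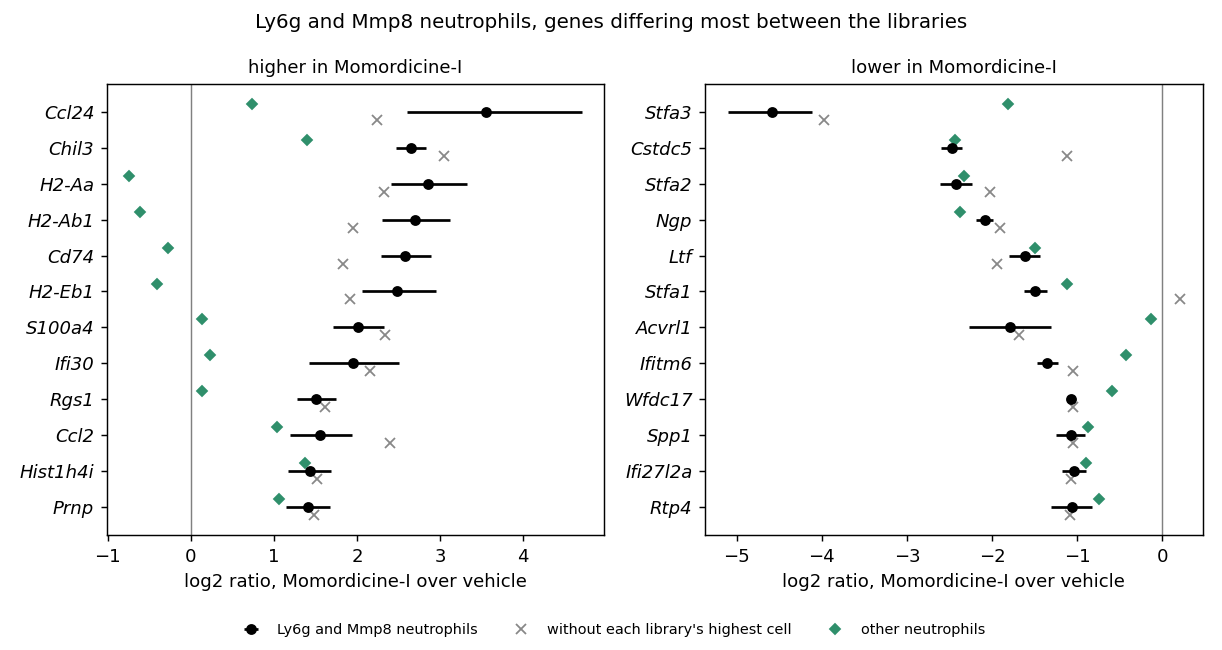
Log2 ratio of Momordicine-I over vehicle (x axis) for the 12 higher and 12 lower genes named by the rule of size, in members (black, with exact 95% counting intervals), in members without the highest cell of each library (crosses) and in other neutrophils (diamonds). Chil3 stood at 2.64 in members and 1.39 in other neutrophils, H2-Aa at 2.85 and -0.74, and Stfa1 turned to 0.20 without the highest cells.

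Receptor and homing genes mostly stood within 1.5-fold between the libraries, where 22.8% of all genes were higher and 3.89% lower. Of 23 pattern and Fc receptor genes, 0 were higher and 0 lower in Momordicine-I members, with a median log2 ratio of -0.02 (0.15 with cells thinned before gating), and Cd14, a lipopolysaccharide co-receptor, stood at 3431 CPM in Momordicine-I members and 3886 CPM in vehicle members. Of 23 migration and adhesion genes, 2 were higher (Ccrl2 and C3ar1) and 0 lower, with a median of -0.04 (0.15 with such thinning). Cxcr2 stood at 1097 CPM in Momordicine-I members and 1053 CPM in vehicle members, a ratio of 1.04 (0.99 to 1.10). Ccrl2, a chemerin-binding receptor without signalling, stood at 1621 CPM in Momordicine-I members and 1041 CPM in vehicle members.

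Chemokine and interleukin 1 genes passed 1.5-fold upward about as often as the 22.8% of all genes, while 3.89% of all genes were lower. Of 10 chemokine genes, 3 were higher (Cxcl1, Cxcl16 and Ccl2) and 1 lower (Ccl6), with a median of -0.08, and Cxcl2, a CXCR2 ligand, stood at 32960 CPM in Momordicine-I members and 31040 CPM in vehicle members. Of 13 interleukin 1 pathway genes, 3 were higher (Il1a, Pycard and Aim2) and 0 lower, with a median of 0.02, and Il1b itself stood at 13357 CPM in Momordicine-I members and 9707 CPM in vehicle members, a ratio of 1.38 (1.35 to 1.399) within 1.5-fold. Of 28 blood neutrophil genes 0 were higher and 4 lower, with a median of -0.06, and of 30 tumour neutrophil genes 1 was higher and 1 lower, with a median of 0.03 (-0.15 with scaling by the median ratio). Cd274 stood at 444 CPM in Momordicine-I members and 509 CPM in vehicle members, a ratio of 0.87 (0.80 to 0.94). Of 24 transcription factor genes 0 were higher and 2 lower (Cebpe and Irf8), and Cebpb, the C/EBP factor of stress granulopoiesis, stood at 6902 CPM in Momordicine-I members and 7015 CPM in vehicle members.

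Few genes of the metabolic, survival and immediate early lists passed 1.5-fold, and their medians are to be read beside the 0.22 of all genes. Past 1.5-fold, 22.8% of all genes were higher and 3.89% lower. Of 18 immediate early genes, 2 were higher (Fos and Btg2) and 0 lower in Momordicine-I members, with a median log2 ratio of 0.27 (0.09 with scaling by the median ratio). Dusp1, a phosphatase that ends MAP kinase signalling, stood at 5814 CPM in Momordicine-I members and 4551 CPM in vehicle members, and Junb, an AP-1 factor, at 5617 and 4941 CPM. Of 19 survival and death genes, 2 were higher (Bcl2a1d and Bax) and 0 lower, with a median of 0.08 (-0.10 with that scaling), and Mcl1, which keeps neutrophils alive, stood at 4010 CPM in Momordicine-I members and 3788 CPM in vehicle members. Of 24 measured genes of 25 on the hypoxia and glycolysis list, 0 were higher and 1 lower (Hk1), with a median of 0.01 (-0.17 with that scaling), and Gapdh, a glycolytic enzyme, stood at 2123 CPM in Momordicine-I members and 2087 CPM in vehicle members. Of 6 measured genes of 7 on the list of the NADPH oxidase, which makes superoxide, 0 were higher and 0 lower, with a median of -0.03 (0.29 with cells thinned before gating).

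Histone genes passed 1.5-fold more often in Momordicine-I members than the 22.8% of all genes, while ribosomal protein and respiratory chain genes did so about as often as all genes. Of 81 measured ribosomal protein genes of 83 listed, 21 were higher and 1 lower, with a median log2 ratio of 0.48, and their summed level was 43003 CPM in Momordicine-I members and 32112 CPM in vehicle members. Of 38 nuclear-encoded respiratory chain genes, 7 were higher and 0 lower, with a median of 0.35. Of 28 measured histone genes of 83 listed, 14 were higher and 0 lower, with a median of 0.59. In other neutrophils the medians were 0.24, 0.25 and 0.44 for the ribosomal, respiratory chain and histone genes, and 0.14 over all genes.

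The acute-phase and immature-stage lists had negative medians. Among all genes 22.8% were higher and 3.89% lower. Of 14 measured acute-phase and secreted genes of 17 listed, 1 was higher (Chil3) and 4 lower (Wfdc21, Wfdc17, Prok2 and Anxa1), with a median of -0.29. Slpi, a protease inhibitor, stood at 1797 CPM in Momordicine-I members and 2657 CPM in vehicle members, where 1 cell held 23.6% of its UMIs. Of 15 measured immature-stage genes of 20 listed, 2 were higher (Chil3 and Tuba4a) and 7 lower, with a median of -0.40, among them Camp, Ngp and Ltf of the granule-loaded cells.

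A UMI of the macrophage and monocyte markers, and of the dendritic cell markers, was found in most members, but 5 or more in a minority. Markers of other cell types stood at lower summed levels. The 8 B cell markers summed to 25.7 CPM in Momordicine-I members (Ebf1 and Pax5 at 0) and 98.8 CPM in vehicle members, with a UMI in 15.3% and 54.1% of cells, shares close to those of other neutrophils (15.3% and 50.8%). The 11 macrophage and monocyte markers summed to 680 CPM in Momordicine-I members and 591 CPM in vehicle members, with none at 0, and had a UMI in 78.1% and 77.8% of them. Cells with 5 or more of their UMIs numbered 98 of 471 Momordicine-I and 55 of 207 vehicle members, and 25 and 8 for the dendritic cell markers. In other neutrophils the macrophage and monocyte markers summed to 536 CPM in the Momordicine-I library and 555 CPM in the vehicle library, with a UMI in 70.9% and 72.8% of cells. The dendritic cell markers given above had a UMI in 60.5% of Momordicine-I members and 57.97% of vehicle members, and in other neutrophils summed to 619 CPM in the Momordicine-I library and 821 CPM in the vehicle library. The 10 tumour and fibroblast markers summed to 85.3 CPM in Momordicine-I members and 29.7 CPM in vehicle members, with Krt5 at 0 in both. The eosinophil genes Epx, Prg2, Il5ra and Ear1 were at 0 in both. The T cell, NK cell, eosinophil, basophil and mast cell, and erythroid and platelet lists each summed to between 11.3 and 24.8 CPM in Momordicine-I members and between 7.16 and 35.3 CPM in vehicle members. The part of these transcripts in the differences above was not tested.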

How the data were processed

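CD45-sorted cells of MOC2 tumours were profiled by 3' single-cell RNA sequencing, 1 library of 3 pooled mice per arm. The deposited files hold unnormalised UMI counts for every gene and cell barcode. Per the submitters' processing notes, the authors used Cell Ranger 6.0.2 and genome build mm10. The deposited counts cover 32285 genes. Chemistry was 10x Genomics 3' v3.1 per the labels' protocols. Nothing in the sources used here states a removal of doublets or of free RNA.

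Cells were filtered (at least 200 genes, at most 10% mitochondrial UMIs) and gated by the rule given in the opening. The members and the gene lists were chosen with earlier results of these data known, so no count over a list is independent support. UMIs were summed over the cells of a population in each library and given as CPM. Shares have exact Clopper-Pearson 95% intervals, CPM exact Poisson intervals and ratios exact conditional binomial intervals. These cover counting error only, since UMIs of 1 cell are not independent and variation between cells and mice is not in them. Since each arm has 1 library, no test was made. A gene was called past 1.5-fold with at least 20 UMIs in the populations compared, rule genes left out. Of 462 list genes 453 were matched, and the rest were not analysed here.

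Genes were named by size, among genes with at least 50 CPM in a group and 50 UMIs in all, without rule, immunoglobulin, T cell receptor, mitochondrial, ribosomal, haemoglobin and predicted genes: the 12 higher and 12 lower whose ratio interval lay farthest from 1, for members over other neutrophils in the same direction in both libraries. Up to 4 members per list and the markers were added; other list members are named where they make up a count. Doublets were left in: Scrublet (scanpy 1.11.5, Python 3.11.15) marked 1 Momordicine-I and 2 vehicle cells, so the highest-scoring 164 and 98 cells (17 and 2 members) were removed in an alternative. Ratio and interval functions were checked on simulated counts. Gene positions are from GENCODE vM21 and promoters from RefSeq, both on GRCm38.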

Additional observations from a re-analysis of the deposited data

Results flagged for a closer look

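Several genes differed in opposite directions, past 1.5-fold, under the same contrast. With 1 library per group none of these differences was tested. For Momordicine-I over vehicle, H2-Aa had a log2 ratio of 2.85 in members and -0.74 in other neutrophils, and H2-Ab1 had 2.70 in members and -0.61 in other neutrophils; 7 cells carried the difference in members.

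For members over other neutrophils, H2-Aa had a log2 ratio of 0.72 in the Momordicine-I library and -2.87 in the vehicle library. Chil3 had 0.65 in the Momordicine-I library and -0.60 in the vehicle library. S100a4 had 0.99 in the Momordicine-I library and -0.89 in the vehicle library, with 13.9% and 31.0% of the members' UMIs in 1 cell. Stfa3 had -1.04 in the Momordicine-I library and 1.74 in the vehicle library, where 48.5% of the members' UMIs came from 1 cell. Pf4, a platelet gene, had -1.12 in the Momordicine-I library and 0.65 in the vehicle library. It rested on few UMIs: all 7 erythroid and platelet markers together had 51 in Momordicine-I members and 33 in vehicle members.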

How the results depend on the processing

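No paired analysis was possible because each arm has 1 library and no test was run. The share of members was higher in the Momordicine-I library under each of the gate alternatives run, and Chil3 was higher in Momordicine-I members under all of its 16 alternatives, with log2 ratios of 2.19 to 4.33. In the comparison with other neutrophils, Wfdc21, Lcn2, Pglyrp1, Ifitm6, Dck, Tnf, Icam1, Csf1, Scimp, Hspa1a and Hspa1b kept their direction in each alternative and library. The cause of the differences below was not tested, and 3 alternatives (a relative Ly6g and Mmp8 minimum, and leaving out cells high in Camp, Ngp and Ltf or in class II genes) were chosen after seeing the data. Alternatives that change the cells or their UMIs can also change which genes reach the minimum of UMIs. Thinning before gating left 146 Momordicine-I and 47 vehicle members. The numbers of genes then measured are not given, so such gene counts and list medians are not directly comparable with those above.

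For Momordicine-I over vehicle, thinning cells to 1000 UMIs before gating, which leaves fewer UMIs per gene, gave share ratios of 2.39 of filtered cells and 2.19 of neutrophils, 303 higher and 138 lower genes, log2 ratios of -0.050 for each of H2-Aa, H2-Ab1 and S100a4, and list medians of -1.08 (interferon), 0.15 (migration), 0.15 (pattern and Fc receptors), 0.29 (NADPH oxidase), 0.12 (transcription factors), 0.45 (survival) and 0.11 (class I). A Ly6g and Mmp8 minimum of 0.04% of UMIs gave share ratios of 2.14 and 1.87, log2 ratios of -0.022 (Ccl24), -0.12 (H2-Aa) and 0.21 (Camp) and a glycolysis median of 0.13. Median-ratio scaling gave 1165 higher and 561 lower genes and list medians of -0.15 (tumour), -0.22 (migration), -0.20 (receptors), -0.10 (survival), 0.091 (immediate early), -0.17 (glycolysis) and 0.12 (class I). Lifting the Saa3 and interferon limits, Ccl24 was at -0.99, H2-Aa -0.19, H2-Ab1 -0.13 and H2-Eb1 -0.088, with medians of -0.69 (interferon) and 0.016 (class I). Without cells high in Camp, Ngp and Ltf, Cstdc5 was at 0.25, Stfa2 0.78, Ltf 0.94 and Stfa1 0.31, with medians of 0.47 (primary granule) and 0.16 (stefin). Without cells high in class II genes Ccl24 was at -0.29 and H2-Eb1 at -0.032. Ccl24 was at -0.25 with a minimum of 1 UMI, Camp at 0.077 with CPM averaged over cells, and Stfa1 at 0.20 without the highest cells.

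For members over other neutrophils in the Momordicine-I library, thinning gave 793 higher and 1746 lower genes and log2 ratios of -2.18 (Arg1), -0.042 (Stfa2) and 0.067 (Cxcl1), and the 0.04% minimum gave 2180 lower genes and -0.13 for Csta2. Without the Saa3 and interferon limits Cxcl10 was at 1.23, Slfn5 0.10, Isg15 0.0040, Parp14 0.015 and Ifi204 0.12. Without cells high in Camp, Ngp and Ltf, Ltf was at -0.59 and Camp at -1.73, and Arg1 was at -0.49 with a neutrophil share of at least 5%. In the vehicle library the count of higher genes was 926 with thinning, 653 with the 0.04% minimum, 661 with CPM averaged over cells, 728 with median-ratio scaling and 252 without the highest cells, and that of lower genes was 1377 with a neutrophil share of at least 5% and 1328 without the Saa3 and interferon limits. There Slfn5 was at 0.15 with thinning, Arg1 at -0.81 with the 0.04% minimum and -0.72 with a minimum of 4 UMIs, and Cstdc5 at -0.022 without the highest cells. With those limits lifted Cxcl10 was at 0.44, Slfn5 0.083, Parp14 0.18 and Chil3 0.030, and without cells high in Camp, Ngp and Ltf, Ltf was at -0.96 and Stfa2 at -0.40.

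With 1 pool of 3 mice per arm, differences between the arms and between the pools cannot be told apart, and the intervals cover counting error only. Genes of few UMIs can rest on 1 cell.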
